A study of Mus musculus with 12 samples.

Results

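Expression of 9 genes of the inflammasome and of cytosolic microbial sensing was examined in sorted mouse B cells. They are the sensors Nlrp3, Nod1, Nod2 and Aim2, the adaptor Pycard, the caspases Casp1 and Casp4, and the cytokines Il1b and Il18. A member was measured where a probe set, the group of short probes that an Affymetrix array holds for a transcript, carried its symbol and no other. This left 8 of the 9 genes and 10 of 45037 probe sets, of which 3 belong to Pycard. Nod2 had no such probe set and was not analysed here. The whole series measured 18193 genes in this way.

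RNA came from cells of female C57BL/6 mice that were sorted by flow cytometry and not cultured. Age-associated B cells (ABC), a population that accumulates in the spleen of ageing females, and follicular B cells (FO), the main resting B cell of the spleen, came from mice older than 15 months. B1 cells, an innate-like B cell of the body cavities, came from the peritoneal cavity of mice older than 15 months (old B1) and of mice of 8 weeks (young B1). The titles call these cells B1a and the cell type field calls them B1. Each of the 4 groups has 3 arrays, and the mice carry no stated transgene or treatment. Surface markers of the sort and any pooling of mice are not given in the labels, and FO and ABC cells of young mice were not analysed here. The labels do not say whether replicates are separate mice, so p-values measure the spread between these samples, which may be technical.

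Inflammasomes are protein complexes that form in the cytosol when a sensor meets a microbial product or a sign of damage. NLRP3 answers to many kinds of cell stress and AIM2 binds double-stranded DNA. Both recruit the adaptor ASC, the product of Pycard, which assembles into filaments and brings caspase-1 together for activation. Caspase-1 then cuts the precursors of interleukin 1 beta and interleukin 18, and cuts gasdermin D, whose fragments open pores in the membrane. Casp4 encodes the mouse caspase that senses cytosolic lipopolysaccharide and also cuts gasdermin D. NOD1 and NOD2 detect fragments of bacterial cell wall and signal through NF-kappaB rather than through caspase-1. These genes are best known in macrophages, monocytes and neutrophils, where Nlrp3 and Il1b are induced on activation. The arrays measure RNA and do not show whether an inflammasome was assembled or a cytokine was processed.

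Values are log2 of the deposited intensity. Differences are given ± the standard error of a limma fit of all 12 arrays, with p-values adjusted over all 18193 genes, and a gene is called at an adjusted p under 0.05. The median intensity ran from 44 to 49.2 over the 12 arrays. Old B1 replicate 3 and old FO replicate 2 had the lowest 75th percentile of intensity and the lowest limma array weights (0.102 and 0.349). The 7 measured B cell markers summed to an intensity of 45650 to 47180 in ABC and 46960 to 50590 in FO. In the 6 B1 arrays the sum was 42350 to 43400. Of these markers Pax5 was the dimmest, at 4.40 to 5.41 in old B1, below the medians of those arrays. Called lower in old B1 than in FO were 3 of the 7, with 0 higher. ABC against FO gave 1 lower and 0 higher, and ABC against old B1 gave 2 higher and 0 lower. Markers of other cell types were present too. The summed intensity of 11 macrophage and monocyte markers was 950.2 to 2207 in FO, 12410 to 14450 in ABC, 9642 to 20850 in old B1 and 11480 to 17730 in young B1. That of 10 neutrophil markers was 20730 to 35070 in ABC, 464.4 to 9996 in FO, 191.1 to 440.4 in old B1 and 321.4 to 1498 in young B1.

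Pycard was called in each of the 3 comparisons between cell types, highest in ABC and lowest in FO. Il18 had another order, highest in B1 cells of either age and lowest in FO. Nlrp3 was dim everywhere and lower in FO than in ABC and old B1. Il1b was high in ABC but varied among the FO arrays more than any other member did within a group. The plot of the members by array shows these levels.

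**Figure D1:**
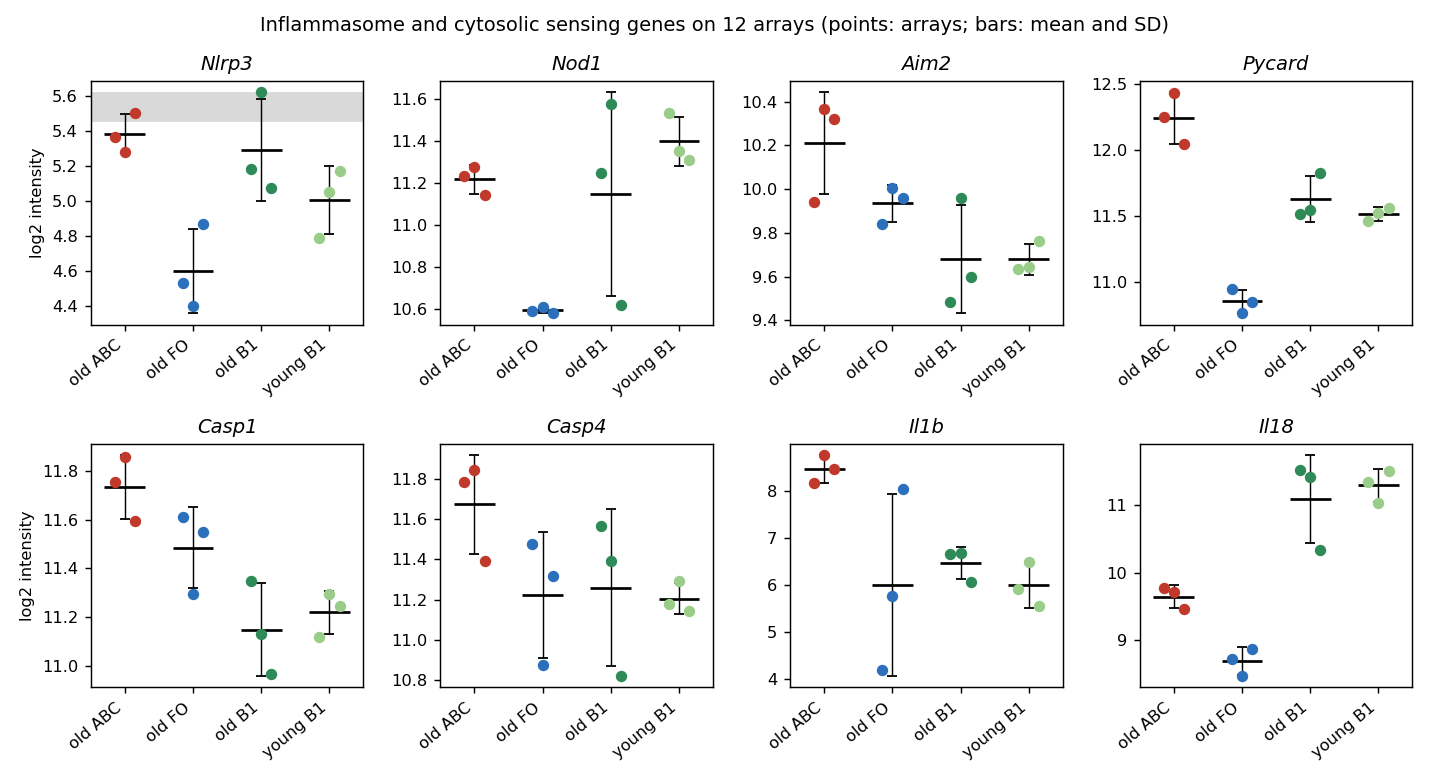
Log2 intensity of the 8 measured members on each array (points), with the mean and SD of each group of 3 (black). The vertical axis differs between panels, and the grey band in the Nlrp3 panel marks the range of the 12 array medians (5.46 to 5.62). Pycard falls into separate levels for ABC, B1 and FO, Il18 is highest in B1, and Il1b in FO runs from 4.20 to 8.05.

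Among the sensors, Nlrp3 measured 5.37, 5.28 and 5.51 in ABC replicates 1 to 3, and 4.53, 4.40 and 4.87 in FO. It measured 5.19, 5.62 and 5.07 in old B1 and 4.79, 5.05 and 5.17 in young B1. Of the 12 arrays 1, old B1 replicate 2, put Nlrp3 above the median of its own probe sets, so that the transcript was near the dim part of the scale throughout. ABC and FO did not overlap, and ABC was higher by 0.79 ± 0.17 (1.73-fold, adjusted p = 0.0156). Old B1 was also higher than FO, by 0.69 ± 0.17 (adjusted p = 0.0202). The difference of ABC from FO no longer passed when ABC replicate 3 was left out (adjusted p = 0.0634), nor without FO replicate 1 (0.0612) or FO replicate 2 (0.0591). The old B1 call was lost without FO replicate 1 (adjusted p = 0.0718), FO replicate 2 (0.0641) or old B1 replicate 2 (0.0603), and in a fit of those groups alone (adjusted p = 0.113). Among the alternatives the difference went down to 0.52 for ABC against FO and 0.46 for old B1 against FO. The filter on dim genes removed Nlrp3, which left it 20 alternatives. Between ABC and old B1 the difference in Nlrp3 was 0.09, with a 95% confidence interval from -0.29 to 0.48.

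Nod1, a sensor of peptidoglycan fragments, lay at 10.59, 10.61 and 10.58 in FO, the tightest group of any member. It lay at 11.23, 11.28 and 11.14 in ABC and at 11.53, 11.36 and 11.31 in young B1. In old B1 it was 11.25 and 11.58 on replicates 1 and 2 but 10.62 on replicate 3, 1 of the 2 arrays that stand apart. FO was below every array of the other groups. Even so the difference of ABC from FO, 0.62 ± 0.20, was not called (adjusted p = 0.0789), and neither was that of old B1 from FO, 0.55 ± 0.20 (adjusted p = 0.0852). Without the 2 arrays that stand apart both passed, at 0.63 (adjusted p = 0.00603) and 0.83 (adjusted p = 0.00169). For ABC against FO the size hardly moved, while the standard error fell from 0.20 to 0.12. The fit shares the variance of a gene over all groups, so an old B1 array bears on that error.

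Aim2, the DNA sensor, was measured by a probe set for which the annotation gives the symbol but no accession, so that its identity was not checked further. It measured 9.94, 10.37 and 10.32 in ABC and 9.841, 10.004 and 9.959 in FO. Aim2 was 9.48, 9.96 and 9.60 in old B1 and 9.64, 9.64 and 9.76 in young B1. The ABC and old B1 arrays overlap. The difference between them was 0.53 ± 0.15 and was called (1.45-fold, adjusted p = 0.039), but the call was lost in 12 of 21 alternatives, which included the fit without old B1 replicate 3 (0.0769) and the one without the 2 arrays that stand apart (0.0772). With ABC replicate 2 left out the adjusted p was 0.144, with ABC replicate 3 left out 0.119, and with old B1 replicate 1 left out 0.112. ABC and FO differed by 0.28 (95% confidence interval -0.05 to 0.60, adjusted p = 0.349).

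Pycard encodes ASC, the adaptor that NLRP3 and AIM2 share. Its brightest probe set gave 12.25, 12.44 and 12.05 in ABC, 11.51, 11.54 and 11.83 in old B1, 11.46, 11.52 and 11.56 in young B1, and 10.94, 10.76 and 10.84 in FO. The arrays of ABC, of the B1 samples and of FO do not overlap. ABC was higher than FO by 1.40 ± 0.12 (2.63-fold, adjusted p = 5.78e-05), and the difference was called in each of 21 alternatives, where it ran from 1.30 to 1.5. Old B1 was higher than FO by 0.78 ± 0.12 (1.72-fold, adjusted p = 0.00166), also called in all 21. ABC was higher than old B1 by 0.62 ± 0.12 (1.53-fold, adjusted p = 0.00839). In a fit of ABC and old B1 alone that last difference had an adjusted p of 0.0888.

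The other 2 probe sets of Pycard allow a check on separate probes. They gave 1.52 ± 0.25 and 1.18 ± 0.17 for ABC against FO, with adjusted p = 0.00322 and 0.00151 over all probe sets. For old B1 against FO they gave 0.97 ± 0.25 and 0.72 ± 0.17 (adjusted p = 0.0253 and 0.0175). For ABC against old B1 they gave 0.55 ± 0.25 and 0.46 ± 0.17, which were not called (adjusted p = 0.219 and 0.133). On these probe sets old B1 replicate 3, at 8.53 and 7.32, reached into the range of ABC, 8.52 to 8.92 and 7.24 to 7.53. The step from FO up to the other groups was therefore seen on all 3 probe sets, and the step from B1 to ABC was called on the brightest alone.

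The 250 bases before the Pycard start site are shown because Pycard was called in each of the 3 comparisons between cell types. They are from RefSeq, build GRCm38.p6, chr7:127993868-127994117, minus strand, written 5′ to 3′ with motif matches in capitals. The motifs searched on both strands were GAAANNGAA (an interferon-stimulated response element), TTCNNNGAA (a STAT site), GAGGAAG (PU.1, a myeloid and B cell factor), GGTGTGA (letters of a T-box site, the kind that T-bet binds) and the NF-kappaB motif. The capitals mark the PU.1 letters on the strand opposite the gene, 43 to 37 bases before the start site.
Pycard: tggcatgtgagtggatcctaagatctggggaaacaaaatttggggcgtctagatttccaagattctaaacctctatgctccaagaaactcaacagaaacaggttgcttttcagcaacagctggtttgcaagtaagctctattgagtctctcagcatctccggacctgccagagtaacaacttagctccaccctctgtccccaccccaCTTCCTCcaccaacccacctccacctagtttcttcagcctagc

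Of all 32851 promoter windows of this length in the table, 10.6% held the PU.1 letters, 7.13% the interferon element, 7.02% the STAT letters, 3.33% the T-box letters and 7.25% the NF-kappaB motif. Windows can overlap where a gene has several start sites. The 8 measured members have 11 windows. Of these, 3 held the PU.1 letters (Pycard, Aim2 and 1 of 2 for Nlrp3), 3 the NF-kappaB motif (both of Casp4 and the other of Nlrp3), 1 the STAT letters (Nod1), 0 the interferon element and 0 the T-box letters. A match describes letters in the window and is not a measured binding site.

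The caspases differed less between the cell types than Pycard, Il18 and Il1b did. Casp1, which encodes the protease that matures both cytokines, lay at 11.75, 11.85 and 11.59 in ABC and at 11.61, 11.30 and 11.55 in FO. It lay at 11.35, 11.13 and 10.97 in old B1 and at 11.12, 11.29 and 11.25 in young B1. ABC and old B1 did not overlap and differed by 0.58 ± 0.13 (1.5-fold, adjusted p = 0.0136). It no longer passed with ABC replicate 2 left out (adjusted p = 0.0588) or in a fit of those groups alone (0.0844). Against FO, ABC differed by 0.25 (95% confidence interval -0.04 to 0.54, adjusted p = 0.337), and old B1 differed from FO by -0.34 ± 0.13 (adjusted p = 0.114).

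Casp4, the lipopolysaccharide-sensing caspase, lay at 11.78, 11.84 and 11.39 in ABC and at 11.48, 10.88 and 11.32 in FO. It lay at 11.57, 11.39 and 10.82 in old B1 and at 11.18, 11.29 and 11.15 in young B1. The lowest arrays of FO and of old B1 are the 2 that stand apart. The differences of ABC from FO (0.45 ± 0.21, adjusted p = 0.28) and from old B1 (0.41 ± 0.21, adjusted p = 0.265) were not called. The interval of the first ran from -0.03 to 0.92, and that of the second from -0.06 to 0.89. Without FO replicate 2 the difference from FO was 0.27, and without old B1 replicate 3 that from old B1 was 0.19. Old B1 and FO differed by 0.04 (95% confidence interval -0.44 to 0.51).

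Casp1 and Casp4 are neighbours on chromosome 9 and lie on the same strand. Their upstream windows are set side by side because these adjacent caspase genes differ in the motif letters they hold. Both are from RefSeq, build GRCm38.p6, plus strand, 5′ to 3′: chr9:5298267-5298516 for Casp1 and chr9:5308599-5308848 for Casp4, which has another listed start site close by. Capitals mark the NF-kappaB motif, which Casp4 holds at 2 overlapping positions on its own strand and at 1 separate position on the opposite strand. The later of the overlapping positions also reads as a match on the opposite strand and was counted once. The Casp1 window held none of the 5 motifs.
Casp1: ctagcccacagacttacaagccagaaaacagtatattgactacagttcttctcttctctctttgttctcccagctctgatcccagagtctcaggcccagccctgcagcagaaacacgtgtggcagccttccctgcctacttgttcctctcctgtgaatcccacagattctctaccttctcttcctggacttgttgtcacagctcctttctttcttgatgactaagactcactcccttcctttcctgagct
Casp4: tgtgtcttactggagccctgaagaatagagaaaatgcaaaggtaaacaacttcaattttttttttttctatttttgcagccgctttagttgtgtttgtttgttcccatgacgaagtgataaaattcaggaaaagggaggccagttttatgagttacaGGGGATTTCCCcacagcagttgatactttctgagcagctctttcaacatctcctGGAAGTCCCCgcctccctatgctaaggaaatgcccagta

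Il18 encodes a cytokine that, unlike interleukin 1 beta, is stored as a ready-made precursor in many cell types. It had the largest called difference of any member. It measured 11.52, 11.42 and 10.34 in old B1, 11.35, 11.03 and 11.51 in young B1, 9.77, 9.72 and 9.46 in ABC, and 8.73, 8.47 and 8.88 in FO. The arrays of B1, ABC and FO do not overlap. Old B1 was higher than FO by 2.40 ± 0.28 (5.29-fold, adjusted p = 1.89e-04), called in each of 21 alternatives, with values from 2.19 to 2.78. ABC fell below old B1, at -1.45 ± 0.28 (adjusted p = 0.00616). In a fit of ABC and old B1 alone this had an adjusted p of 0.0662, and in the fit of 12 arrays it was called with each single ABC or old B1 array left out. ABC was above FO by 0.96 ± 0.28 (1.94-fold), which was not called (adjusted p = 0.0566). Without the 2 arrays that stand apart that difference was 0.85 and passed (adjusted p = 0.00468), with a standard error of 0.15 in place of 0.28. The low old B1 value, 10.34, is that of replicate 3, which also had the lowest summed macrophage markers of the B1 arrays (9642, against 20850 and 19990). That array was also the lowest of them for mast cell (2028), T cell (444), NK cell (380.5), neutrophil (191.1) and erythroid and platelet (361.5) markers. Its dendritic cell and plasma cell sums were not the lowest, and the macrophage marker Cd68 was highest there (11.64). The part of other cells in this Il18 value was not tested.

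The window upstream of Il18 is shown because this gene gave the largest called difference. It is from RefSeq, build GRCm38.p6, chr9:50554450-50554699, plus strand, 5′ to 3′. It held none of the 5 motifs and so has no capitals.
Il18: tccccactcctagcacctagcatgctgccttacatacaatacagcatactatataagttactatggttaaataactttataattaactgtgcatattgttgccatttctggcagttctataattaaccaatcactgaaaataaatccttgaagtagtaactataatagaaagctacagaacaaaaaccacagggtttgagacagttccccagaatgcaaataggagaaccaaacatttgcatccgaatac

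Il1b, the inducible inflammatory cytokine, measured 8.16, 8.76 and 8.47 in ABC, 6.65, 6.68 and 6.07 in old B1, and 5.92, 6.50 and 5.57 in young B1. In FO it measured 4.20, 5.77 and 8.05. The FO arrays span 3.85 on the log2 scale, so that FO replicate 3 nearly reached the lowest ABC array while FO replicate 1 lay in the dim part of its array. ABC was above every array of the other groups. The difference from FO was 2.46 ± 0.74 (5.50-fold, adjusted p = 0.0655) and that from old B1 was 2.0 ± 0.74 (3.99-fold, adjusted p = 0.114), and neither was called. The difference from FO was 3.48 without FO replicate 3 (adjusted p = 0.00137), 1.56 without FO replicate 1 (adjusted p = 0.164) and 1.32 with array weights (adjusted p = 0.239). With dim genes left out of the test, it passed at the same size (adjusted p = 0.0466), and in a fit of ABC and old B1 alone the difference from old B1 passed (adjusted p = 0.00929).

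Neutrophil markers moved with Il1b among the FO arrays and the old B1 arrays but not among the ABC arrays. Their summed intensity was 464.4, 2004 and 9996 on FO replicates 1, 2 and 3, where Il1b was 4.20, 5.77 and 8.05. In ABC the sum was 35070, 20730 and 26350 on replicates 1 to 3, where Il1b was 8.16, 8.76 and 8.47, the opposite order. Of the 10 neutrophil markers 5 were called higher in ABC than in FO and 0 lower, with Ltf (4.18 ± 0.63), Mpo (2.77 ± 0.46) and Camp (4.69 ± 0.85) first by p. In old B1 the markers Lcn2, Mpo, Elane and Cxcr2 lay under the 25th percentile of their array on all 3 arrays, while S100a8 (6.65, 6.85 and 3.88) and S100a9 (7.21, 7.48 and 5.14) were above the array medians on replicates 1 and 2. The neutrophil sums in old B1 were 395.9, 440.4 and 191.1 on replicates 1 to 3. Il1b there was 6.65, 6.68 and 6.07, the same order. In young B1 the sums were 321.4, 1498 and 427, where Il1b was 5.92, 6.50 and 5.57. Replicate 2 was highest in both, while the lowest values fell on different arrays. Macrophage markers also rose over the FO arrays, with sums of 950.2, 1279 and 2207. The part of neutrophil or macrophage RNA in the Il1b values was not tested. In samples of many cells, fewer cells of a type and less RNA per cell cannot be told apart.

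**Figure D2:**
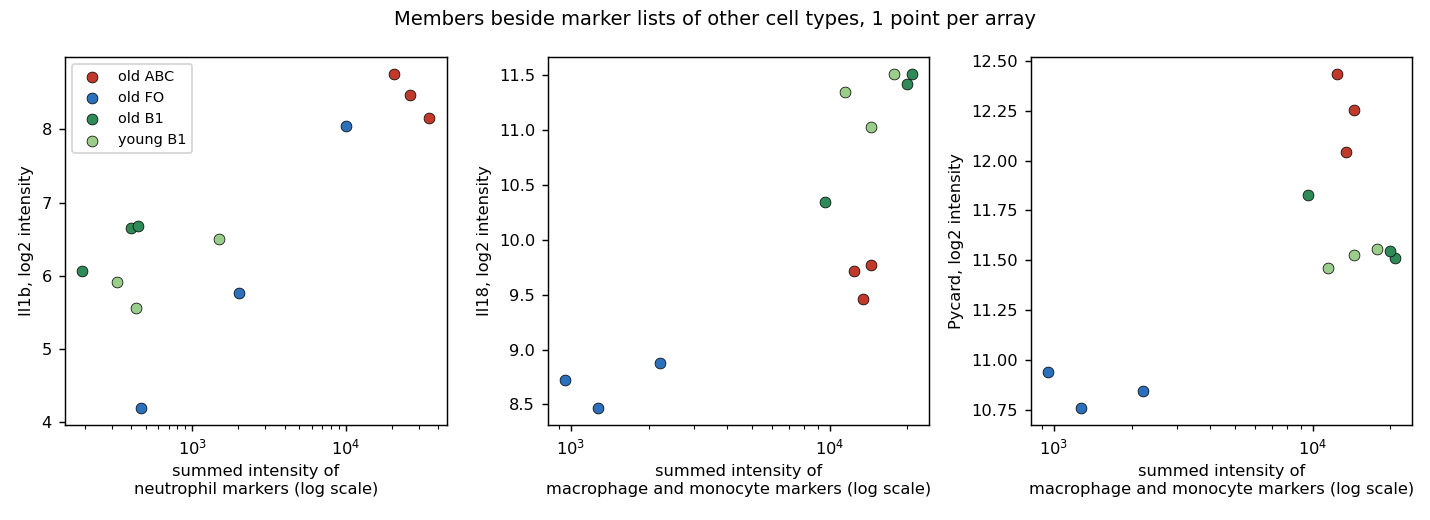
Log2 intensity of Il1b, Il18 and Pycard on each of the 12 arrays against the summed intensity of neutrophil or macrophage and monocyte markers (horizontal axes, log scale), with 1 point per array and colours for the groups. FO replicate 3 lies nearest to ABC for Il1b and for neutrophil markers, and the ABC and B1 arrays overlap in macrophage markers (9642 to 20850) but not in Il18.

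Markers of macrophages and monocytes were mostly higher in ABC and in old B1 than in FO, as Pycard and Nlrp3 were. Of 11 such markers 8 were called higher in ABC than in FO, led by Adgre1 (F4/80, 4.27 ± 0.40), Lyz2 (3.22 ± 0.48) and Cd163 (2.16 ± 0.35), and 11 of 11 in old B1 than in FO, led by Cd68 (3.08 ± 0.31), Lyz2 (4.20 ± 0.48) and Vsig4 (5.40 ± 0.79). Between ABC and old B1, Adgre1 was higher in ABC (2.16 ± 0.40) while Vsig4 (-5.09 ± 0.79) and Cd68 (-1.48 ± 0.31) were lower. Of 9 dendritic cell markers, 4 were called higher in ABC than in FO, led by Sirpa (3.29 ± 0.35), Itgae (2.94 ± 0.42) and Siglech (0.70 ± 0.16). In old B1 against FO 4 were called higher and 1, Flt3, lower, and between ABC and old B1 3 were higher and 0 lower. The sums of the 9 were 5117 to 5859 in ABC, 810.5 to 1271 in FO, 4836 to 4952 in old B1 and 4250 to 4710 in young B1. Sirpa was the brightest of the 9 on every array, at 11.45 to 11.97 in ABC, 7.72 to 9.45 in FO and 11.80 to 12.12 in old B1. Mast cell markers were higher in the B1 samples, as Il18 was, with summed intensities of 2028 to 4917 in old B1, 2289 to 9940 in young B1, 477.3 to 1126 in ABC and 232.7 to 251.8 in FO. Of 8 such markers 5 were called higher in old B1 than in FO and 0 lower, and 4 were called lower in ABC than in old B1 and 0 higher. Not every member followed the macrophage markers. In old B1 against FO, Casp1 (-0.34) and Aim2 (-0.255) were lower without a call, and Casp4 differed by 0.04. The part of macrophages, monocytes, dendritic cells and mast cells in the members' differences was not tested. No marker was listed at 0, the lowest deposited intensity being 3.003.

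Against the background of all genes, 2 of 8 members were called between ABC and FO (Pycard and Nlrp3, both higher in ABC), where 9.96% of all genes were called, 7.12% higher and 2.84% lower. Without the 2 arrays that stand apart 4 members were called, with Nod1 and Il18 added, where 2964 of 18193 genes were called in place of 1812. Between ABC and old B1 4 members were called, Pycard, Casp1 and Aim2 higher in ABC and Il18 lower, where 12.8% of genes were called (7.4% higher, 5.43% lower). In a fit of those groups alone 1 of the 8 was called, which was Il1b, where 1062 of 18193 genes were called in place of 2334. Between old B1 and FO 3 were called, Pycard, Nlrp3 and Il18, all higher in B1, where 16.4% of genes were called (8.4% higher, 8.02% lower). The median difference over the 8 members was 0.70, 0.47 and 0.51 in these comparisons, against -0.03, 0.02 and -0.04 over all genes. The ABC arrays, and likewise the FO and old B1 arrays, serve in more than 1 of these comparisons, so the counts are not independent of each other. Peritoneal and splenic origin differ along with the cell type in each comparison with B1 cells and cannot be told apart from it.

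**Figure D3:**
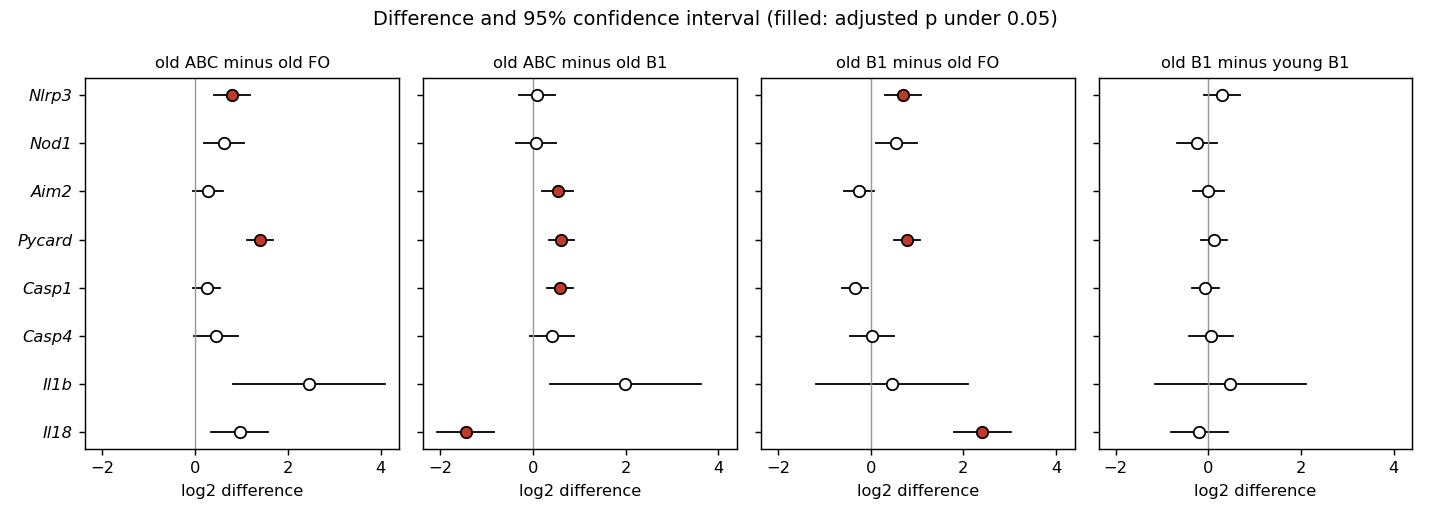
Log2 difference of each member in the 4 comparisons (points), with the 95% confidence interval of the limma fit (lines). Filled points have an adjusted p under 0.05: Pycard and Nlrp3 in ABC against FO, Pycard, Casp1, Aim2 and Il18 in ABC against old B1, Pycard, Nlrp3 and Il18 in old B1 against FO, and none in old against young B1.

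Age of the mouse was compared within peritoneal B1 cells, old against young. By limma 0 of 8 members were called, and 0 had an unadjusted p under 0.05, where 0.291% of all genes were called. The largest differences were those of Il1b (0.47 ± 0.74) and Nlrp3 (0.29 ± 0.17, adjusted p = 0.705). For Pycard the 95% confidence interval ran from -0.16 to 0.39, for Casp1 from -0.36 to 0.22, for Aim2 from -0.33 to 0.33 and for Il18 from -0.82 to 0.41. A change of up to these bounds is thus not excluded by the 3 arrays a group, and for Il1b the interval is wide, from -1.16 to 2.11. Old and young B1 arrays overlapped for all 8 members, and how many of all genes overlapped in this way was not counted. Old B1 replicate 3 was the outermost of the 6 B1 arrays for Nod1, Pycard, Casp1, Casp4 and Il18. The count stayed at 0 in each alternative, including the fit without that array.

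The other genes of these pathways were taken from 6 lists, and 59 of them were measured. Between ABC and FO 14 were called higher and 2 lower, between ABC and old B1 16 and 5, and between old B1 and FO 13 and 9. Of all genes 7.12% were called higher and 2.84% lower, 7.4% and 5.43%, and 8.4% and 8.02%, in the same order. Between old and young B1 0 of 59 were called by limma, where 0.291% of all genes were called, and 7 had an unadjusted p under 0.05. How many of all genes had such a p was not counted. The median difference over the 59 was 0.17, 0.06 and -0.02 in the first 3 comparisons, against -0.03, 0.02 and -0.04 over all genes. No called gene of these lists changed direction under any alternative. The part of neutrophils, macrophages or other cell types in the differences of these genes was not tested.

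**Figure D4:**
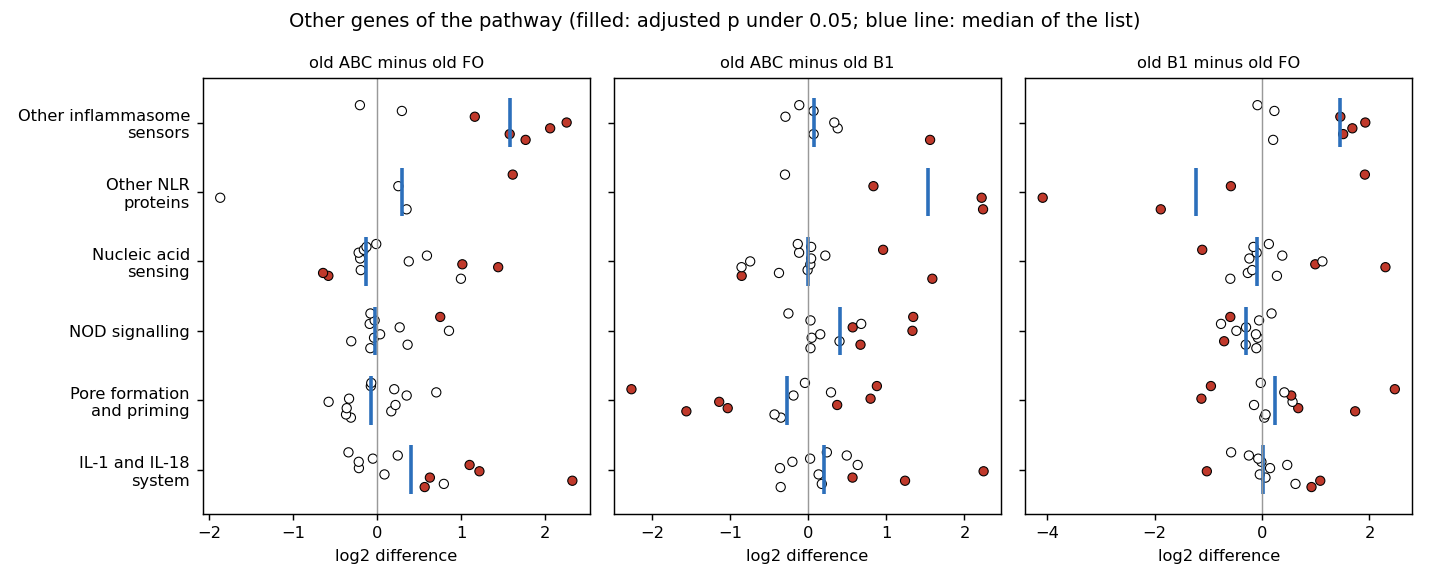
Log2 difference of the 59 other pathway genes, by list (rows) and comparison (panels), with filled points for an adjusted p under 0.05 and a blue line at the median of the list. The other inflammasome sensors lie to the right in both comparisons with FO, with medians of 1.58 and 1.46, and the horizontal axes differ between panels.

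Of 7 other inflammasome sensors 5 were called higher in ABC than in FO, 0 were lower and 2, Nlrp6 and Nlrp12, were not called and were dim in all groups. NAIP proteins recognise flagellin and parts of bacterial secretion systems. Naip2 measured 10.12, 10.41 and 10.16 in ABC, 10.07, 10.04 and 10.38 in old B1 and 8.53, 8.94 and 8.49 in FO. ABC and old B1 were each above FO with no overlap, by 1.58 ± 0.16 (adjusted p = 1.06e-04) and 1.51 ± 0.16 (adjusted p = 9.0e-05). Naip6 (2.25 ± 0.25 and 1.92 ± 0.25) and Naip5 (2.06 ± 0.38 and 1.68 ± 0.38) were higher too, though the old B1 call of Naip5 was lost in the fit of those groups alone. The Naip genes are close copies of each other, so probes of 1 may also take up RNA of another. Mefv, which encodes the inflammasome sensor pyrin, measured 6.00, 5.67 and 5.98 in ABC and 4.04 to 4.78 on the other 9 arrays. Mefv was thus dim outside ABC, with those 9 values below the array medians (5.46 to 5.62), and lay little above them in ABC. It was higher in ABC than in FO by 1.77 ± 0.19 (adjusted p = 1.68e-04) and than in old B1 by 1.56 ± 0.19 (adjusted p = 3.7e-04), called in all 21 alternatives in either comparison, with values down to 1.17 against FO and 1.05 against old B1. Mefv was the 1 of the 7 sensors called between ABC and old B1. Nlrp10, named after its value was seen, was the remaining sensor called higher in ABC than in FO (1.16 ± 0.30, adjusted p = 0.0313). Its call was lost without any single ABC array and without FO replicate 2 or 3. In old B1 it was higher than in FO by 1.46 ± 0.30 (adjusted p = 0.00643), a call lost in the fit of those groups alone.

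Among other proteins of the NLR family, Nlrx1, a mitochondrial member, was higher than in FO both in ABC (1.61 ± 0.20, adjusted p = 5.32e-04) and in old B1 (1.92 ± 0.20, adjusted p = 1.12e-04). Nlrc3, Ciita and Nlrc5 showed the reverse order between B1 and the splenic cells. Nlrc3, a negative regulator of signalling, measured 9.08, 9.0 and 9.39 in FO, 7.65, 6.65 and 7.57 in ABC and 6.16, 5.79 and 3.27 in old B1. Old B1 was lower than FO by -4.09 ± 0.62 (adjusted p = 0.00112), or by -2.75 with the mean of the probe sets of the gene. Ciita, the transactivator of MHC class II genes, fell by 1.89 ± 0.24 in old B1 against FO and was higher in ABC than in old B1 by 2.24 ± 0.24. Nlrc5, that of class I genes, was higher in ABC than in old B1 by 0.83 ± 0.11 (adjusted p = 6.48e-04) and lower in old B1 than in FO by -0.58 ± 0.11 (adjusted p = 0.00448). Nlrc3 was higher in ABC than in old B1 by 2.22 ± 0.62 (adjusted p = 0.0383), and this was lost with any single ABC array left out and went down to 1.21 among the alternatives.

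Of 13 genes of nucleic acid sensing 2 were higher and 2 lower in ABC than in FO. Dhx58 (-0.64 ± 0.11, adjusted p = 0.00406) was lower, called in all 21 alternatives with values up to -0.39, whereas Ddx58, the RIG-I sensor (-0.58 ± 0.16), Ifih1 (1.01 ± 0.26) and Ifi204 (1.44 ± 0.41) lost their calls in 9 to 13 of 21, with values down to 0.86 for Ifi204. Against old B1, ABC held more Cgas, the cytosolic DNA sensor (1.59 ± 0.30, adjusted p = 0.00608), and more Sting1, the adaptor downstream of it (0.96 ± 0.19, adjusted p = 0.00717), and less Ddx58 (-0.86 ± 0.16, adjusted p = 0.00586). Those 3 calls were lost in the fit of the compared groups alone. Sting1 was 11.06 to 11.25 in ABC, 11.12 to 11.51 in FO and 9.77 to 10.57 in old B1. In old B1 against FO, Ifi204 (2.30 ± 0.41) and Ifih1 (0.99 ± 0.26) were higher and Sting1 lower (-1.11 ± 0.19). The call of Ifih1 was lost in 6 of 21 alternatives, among them the fits without FO replicate 1 or 2 or old B1 replicate 1.

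Downstream of NOD1, 1 of 11 measured genes was called between ABC and FO, which was Tnfaip3, the NF-kappaB inhibitor A20 (0.75 ± 0.18, adjusted p = 0.0219). That call was lost without ABC replicate 1 or 2 or FO replicate 2 or 3. Between ABC and old B1, 4 were higher and 0 lower: Tnfaip3 (1.34 ± 0.18), Slc15a4 (0.57 ± 0.10), Slc15a3 (1.33 ± 0.35) and Birc2 (0.67 ± 0.19). Slc15a3 and Slc15a4 encode transporters that carry bacterial peptides out of endosomes, and Birc2 a ubiquitin ligase of the NOD complex. The calls of Slc15a3 and Birc2 were lost without any single ABC array, that of Slc15a3 also without old B1 replicate 1 or 2, and that of Slc15a4 in the fit of those groups alone. Among the alternatives the difference went down to 0.32 for Slc15a4 and 0.40 for Birc2. In old B1 against FO, Birc3 (-0.71 ± 0.21, adjusted p = 0.043) and Tnfaip3 (-0.59 ± 0.18, adjusted p = 0.0458) were lower, calls that each of them lost in 9 of 21 alternatives, with FO replicate 1 or 3 left out among them, and their values went up to -0.42 and -0.37.

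Of 12 genes of pore formation and priming, 0 were called between ABC and FO by limma, where 9.96% of all genes were called. An unadjusted p under 0.05 was found for 4 of the 12. Without the 2 arrays that stand apart 2 were called higher, where 2964 of 18193 genes were called. Between ABC and old B1, 3 were higher and 4 lower. P2rx7, the ATP-gated channel that triggers NLRP3, was 9.08, 9.13 and 9.62 in old B1, 8.85 to 9.37 in young B1, 6.66 to 7.34 in ABC and 6.67 to 6.88 in FO. Old B1 was above ABC and FO with no overlap (-2.27 ± 0.21 for ABC minus old B1, adjusted p = 7.25e-05, and 2.47 ± 0.21 for old B1 minus FO, adjusted p = 2.39e-05). Gbp2, a guanylate-binding protein that exposes bacterial lipopolysaccharide, had the same order (-1.57 ± 0.20 and 1.73 ± 0.20). Irgm1 and Panx1, a membrane channel, ran the other way, at -1.13 ± 0.15 and -0.95 ± 0.16 in old B1 against FO and 0.80 ± 0.15 and 0.88 ± 0.16 in ABC against old B1, the last of which was lost in the fit of those groups alone. Gsdmd, the pore protein itself, differed little. It was 10.91 to 10.95 in ABC, 10.68 to 10.74 in FO and 10.55 to 10.58 in old B1. Its difference of 0.37 ± 0.08 between ABC and old B1 was called (adjusted p = 0.0154) but not without ABC replicate 2 or in the fit of those groups alone. Gsdmd was chosen after its value was seen.

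In the system of interleukin 1 and interleukin 18 receptors and inhibitors, 5 of 12 genes were called higher in ABC than in FO and 0 lower. Il18rap, the accessory chain of the interleukin 18 receptor, measured 7.45, 7.81 and 6.89 in ABC, 6.27, 6.19 and 5.98 in old B1 and 4.60, 5.36 and 5.23 in FO. It was higher in ABC than in FO by 2.32 ± 0.25 (adjusted p = 1.77e-04) and than in old B1 by 1.24 ± 0.25 (adjusted p = 0.0077). The ligand-binding chain Il18r1 was not called between ABC and FO (0.79, adjusted p = 0.358) or between ABC and old B1 (0.17, adjusted p = 0.845). Il1r2, the decoy receptor of interleukin 1, was higher in ABC than in FO by 1.22 ± 0.22 (adjusted p = 0.00544) and than in old B1 by 2.25 ± 0.22 (adjusted p = 1.07e-04), though it was 5.67 to 6.00 in ABC, close to the medians of the arrays, and the second difference went down to 1.37 among the alternatives. Il1rn, the receptor antagonist, rose by 1.10 ± 0.21 in ABC against FO (adjusted p = 0.00721). It lay at 4.11 to 4.70 in FO, below the array medians, and among the alternatives its difference went as low as 0.48. Il1a was called higher in ABC (0.63 ± 0.14) but lay at 2.50 to 3.46 on all arrays, near the lowest values of the scale, and the call was lost without ABC replicate 1 or FO replicate 1 or 3, with values down to 0.20 among the alternatives. Il18bp, which binds and neutralises interleukin 18, was higher than in FO in old B1 (0.92 ± 0.16, adjusted p = 0.00222) and in ABC (0.57 ± 0.16, adjusted p = 0.044). The ABC call was lost in 12 of 21 alternatives, with each single ABC or FO array left out among them.

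The genes whose pattern over the 12 arrays was most like that of each called member were found by Pearson correlation of log2 intensity, and the arrays share 4 group means, so that the values are a description of these groups. For Pycard they were Zeb2, a transcription factor (r = 0.98), Pogk (0.966) and Upk1a (0.964). For Il18 they were Crip2 (0.991), Fn1, or fibronectin (0.988), and Relt (0.986). For Casp1 they were Chpt1 (0.97), Ccdc71l (0.965) and Higd1a (0.962), for Nlrp3 Hp, or haptoglobin (0.936), Igsf6 (0.917) and Dnajb13 (0.909), and for Aim2 Tspyl4 (0.93), Srpk3 (0.911) and Sypl (0.902).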

How the data were processed

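The authors deposited linear intensity values (3.003 to 22068) for 45037 probe sets on 12 Affymetrix mouse arrays. RMA and affy are named, without version, per the submitters' processing notes. How background was corrected and probes were summarised is not stated there.

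The log2 of each intensity was taken with no pseudocount. Gene symbols came from the annotation of the array platform. Of all probe sets 34945 carried 1 symbol, 932 several and 9160 none. The symbols of 34741 matched the RefSeq gene table by identifier, with 0 to update. Each gene was represented by its single-symbol probe set with the highest mean, which gave 18193 genes. All 12 arrays were fitted with 4 group means in limma 3.58.1 (R 4.3.3), with 8 residual degrees of freedom, and p-values were adjusted by the Benjamini-Hochberg method within each comparison. The procedure was tested on simulated data. The number of arrays limits the precision.

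The members and gene lists were chosen with earlier results of these data known. Named are all members, up to 4 called genes a pathway list and up to 3 called markers a list by p, and the 3 genes most like each called member among those whose highest group mean reached the probe set median, with predicted genes and immunoglobulin segments passed over. Symbols of the lists that no single-symbol probe set carried were not analysed here. Marker lists for mast, T, NK and plasma cells and for erythroid cells with platelets gave 2, 1, 2, 4 and 1 genes called higher in ABC than in FO and 0 lower. Between old B1 and FO they gave 5, 0, 1, 2 and 1 higher and 0, 0, 0, 1 and 3 lower, and between ABC and old B1 0, 1, 2, 3 and 3 higher and 4, 0, 0, 0 and 1 lower. Alternatives were trend and robust fitting, array weights, the compared groups alone, a replicate block, cyclic loess, repeated quantile normalization, median centring, the array's 75th percentile added to the model, a filter on dim genes, the mean or each of the probe sets of a gene, an adjusted p under 0.01, log2 of intensity plus 16, and leaving out 1 array or the 2 that stand apart. Promoter windows are RefSeq sequences of GRCm38.p6. Figures were drawn with matplotlib 3.10.9.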

Additional observations from a re-analysis of the deposited data

How the results depend on the processing

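No member that was called changed direction under any alternative. The number of members called between ABC and FO, 2 of 8, was 5 with array weights (Nod1, Casp4 and Il18 added), 4 with the compared groups alone, with cyclic loess, with the 75th percentile as a covariate and without the 2 arrays that stand apart (Nod1 and Il18 added in each), and 1 at an adjusted p under 0.01 (Pycard). It ran from 1 to 3 when single arrays were left out. Between ABC and old B1, 4 of 8 became 1 with the compared groups alone and 2 at an adjusted p under 0.01 (Pycard and Il18), and 2 to 4 with single arrays left out. Between old B1 and FO, 3 became 5 with array weights (Nod1 and Casp1 added), and 2 to 4 with single arrays left out. Between old and young B1 the count was 0 throughout. With the replicate block the counts were 2, 4, 3 and 0, as without it. The labels do not say whether arrays of the same number are paired. Of 18 same-number pairs 3 had deviations that correlated above 0.1 (median -0.04), and 3 of 12 arrays correlated best with their own number. With 3 arrays a group, these correlations cannot decide whether the arrays are paired. Over all genes, the 1812 calls between ABC and FO became 3961 with array weights, 2964 without the 2 arrays, 2748 with the covariate and 990 at an adjusted p under 0.01. They became 1962 with the compared groups alone, 1947 with cyclic loess and 1267 to 1544 with single arrays left out. Median centring moved the median difference of all genes from -0.03 to -0.11 and split the calls into 1123 higher and 762 lower, against 1295 and 517. The 2334 calls between ABC and old B1 became 3592 with array weights, 3694 over single probe sets (of 34945 tested, against 18193 genes), 1062 with the compared groups alone and 1281 at an adjusted p under 0.01. The 2988 calls between old B1 and FO became 5001, 4964 (of 34945), 1455 and 1706 in the same order. Cyclic loess split them into 1959 higher and 1114 lower, against 1529 and 1459. With single arrays left out, the calls numbered 1609 to 2738 between ABC and old B1 and 2098 to 3555 between old B1 and FO. The 53 calls between old and young B1 became 316 with array weights, 208 without the 2 arrays, 80 with the covariate, 32 with the replicate block, 15 at an adjusted p under 0.01 and 2 with the compared groups alone, and 17 to 165 with single arrays left out. The cause of these changes was not tested. Nlrp3, Il1a and Il1rn, and outside ABC also Mefv and Il1r2, lie low on the intensity scale, where differences of log2 values are least exact.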
